A study of Arabidopsis thaliana with 15 samples.

Results

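The genes described here encode core and accessory subunits of the Arabidopsis SWI/SNF chromatin remodelling complexes. They are the SWI3 proteins SWI3A, SWI3B, SWI3C and SWI3D, the SWP73 proteins SWP73A and SWP73B, the SNF5 homolog BSH, the actin-related proteins ARP4 and ARP7, and the bromodomain protein BRD1. They were chosen by locus ID, and all 10 of the 10 loci were found among 33201 entries of the expression table and had been tested. The RNA-seq libraries came from 14-day-old whole seedlings in the Col-0 background, 3 from the mutant syd-5 and 3 from wild type (WT). Seedlings of both genotypes were grown on MS plates in long days. The mutant is affected in SPLAYED (SYD), an ATPase of these complexes that is related to BRAHMA (BRM), another of their ATPases. A further 9 libraries were ChIP and input samples, of SYD-GFP in a syd-5 line with pSYD::SYDΔC-GFP and of H3K27me3 in syd-5 and WT, and were not used here. The labels do not describe the lesion in syd-5, and they do not say whether libraries of one genotype came from separately grown plants.

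SWI/SNF complexes use the energy of ATP to slide or evict nucleosomes. Each is built around a catalytic ATPase, and the other subunits assemble the complex, hold it on chromatin and stabilise the ATPase. SWI3 proteins carry SWIRM and SANT domains and act as dimeric scaffolds, BSH and the SWP73 proteins belong to the conserved core, ARP4 and ARP7 form an actin-related module next to the ATPase, and bromodomain proteins such as BRD1 bind acetylated histones. In Arabidopsis SWI3C works with BRM, SWI3D with SYD, and SWI3A, SWI3B and BSH with the smaller MINU-type ATPases CHR12 and CHR23, while the SWP73 and actin-related subunits are shared. Loss of single subunits disturbs embryo, leaf and flower development and flowering time.

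SYD transcripts were reduced in syd-5, and 2 of the 10 subunit genes were higher than in WT. SWP73A rose 1.44-fold and BRD1 rose 1.30-fold, and no member has a span shared with another listed gene. None of the 10 fell, at an unadjusted p under 0.05 either, and the other 8 were not called, at 0.959-fold to 1.18-fold of their WT values. The words rose, fell and called are kept for genes with a q-value up to 0.05 in the authors' deposited table, which gives 1 expression value per genotype. These values were read as FPKM, which scales fragments by transcript length and library size. The header does not name the unit, and no spread between libraries and no sequencing depth stands behind a value. The order of values that lie close together is therefore a description only. Fold changes are syd-5 over WT. Of all 19868 tested genes 32.1% were called, 14.1% higher and 18.0% lower in syd-5, and the share among the members was 20%. Under other rules 1 member passed q of 0.01 (22.6% of all tested genes), 2 passed q of 0.10 (38.2%), 2 passed with the adjustment over all listed genes (28.5%), and 0 passed when at least a 1.5-fold difference was also asked for (21.5%).

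**Figure D1:**
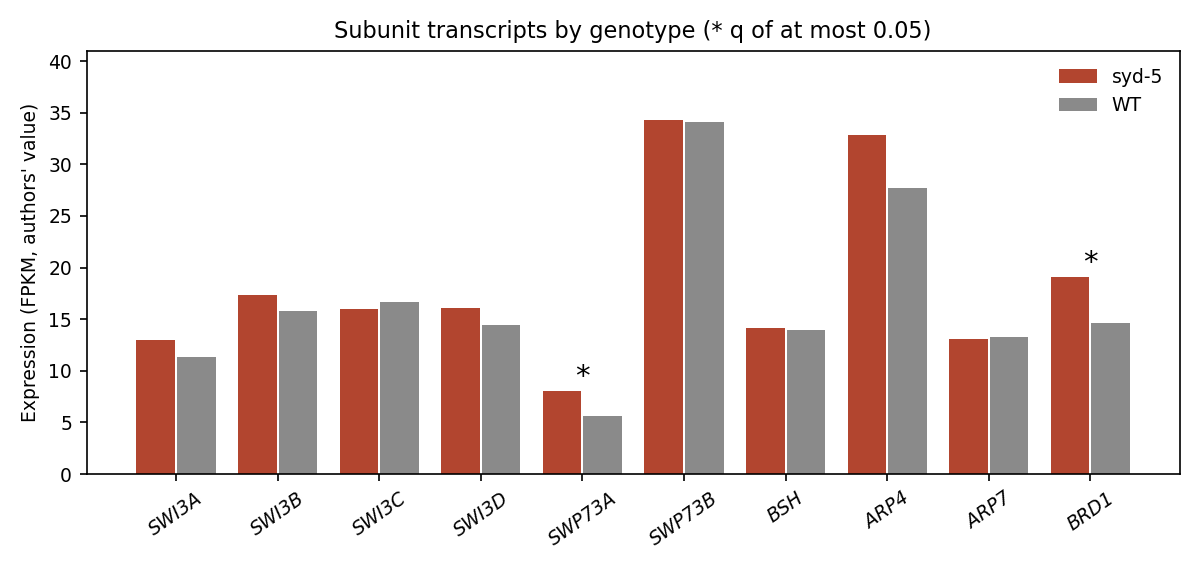
Expression of each of the 10 subunit genes in FPKM, with 1 bar per genotype (the authors' single value, so no error bar), syd-5 in red and WT in grey. Stars mark SWP73A and BRD1, the 2 genes with q of at most 0.05, and the bars of SWP73B, BSH and ARP7 are nearly level between the genotypes.

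The members spanned a modest range of expression. Levels in syd-5 ran from 8.02 FPKM for SWP73A to 34.3 FPKM for SWP73B, and in WT from 5.58 FPKM to 34.1 FPKM for the same genes. Among genes above 0, that range covered percentiles 47.1 to 79.1 in syd-5 and 40.0 to 79.4 in WT. The median member stood at 16.1 FPKM in syd-5 and 14.6 FPKM in WT, against medians of 12.3 FPKM and 13.1 FPKM over all tested genes. SWP73B and ARP4 led in both genotypes, and 7 members lay between 10 and 20 FPKM in both. The order was kept for 7 of 10 genes. BRD1 was at rank 3 in syd-5 and rank 5 in WT, SWI3D at rank 5 and rank 6, and SWI3C at rank 6 and rank 3, all within a narrow band of levels.

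The 4 SWI3 genes had similar levels, and none of them was called. SWI3A (AT2G47620, TAIR10 chromosome 2, 19531947 to 19534401), needed in the embryo, stood at 13.0 FPKM in syd-5 and 11.3 FPKM in WT. Its log2 fold change was 0.20 (q = 0.357 in the authors' deposited table). SWI3B (AT2G33610, chromosome 2, 14228972 to 14231309), also essential for embryo development, stood at 17.3 FPKM in syd-5 and 15.8 FPKM in WT. This gives a log2 fold change of 0.14 (q = 0.522 in the authors' deposited table). Both genes were a little above WT in the mutant, by amounts that the authors' test did not call.

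SWI3C (AT1G21700, chromosome 1, 7620001 to 7624136), the scaffold found with BRM, stood at 16.0 FPKM in syd-5 and 16.7 FPKM in WT. It was the lowest of the 10 by fold change, at log2 -0.06 (q = 0.796 in the authors' deposited table). SWI3D (AT4G34430, chromosome 4, 16460920 to 16465323), named CHB3 in RefSeq and found with SYD itself, stood at 16.1 FPKM in syd-5 and 14.5 FPKM in WT. The log2 fold change came to 0.16 (q = 0.435 in the authors' deposited table). The scaffold gene of the SYD complex was thus not among those called.

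Summed over the family, SWI3 transcripts came to 62.4 FPKM in syd-5 and 58.2 FPKM in WT. The highest gene exceeded the lowest 1.34-fold in syd-5 and 1.48-fold in WT, so that no SWI3 gene dominated the sum. SWI3C held 25.6% of it in syd-5 and 28.7% in WT, the largest difference in share among the 4. SWI3A held 20.8% and 19.4%, SWI3B 27.8% and 27.1%, and SWI3D 25.8% and 24.9%, in syd-5 and WT in each case. These shares are quotients of single values and were not tested.

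The SWP73 genes, homologs of the BAF60 subunits of animals, differed far more from each other. SWP73A (AT3G01890, chromosome 3, 310015 to 311976) stood at 8.02 FPKM in syd-5 and 5.58 FPKM in WT. It was the lowest of the members in both genotypes and had the largest fold change among them, log2 0.52 (p = 0.00225, q = 0.00994 in the authors' deposited table). Of all tested genes with a finite ratio, 69.4% had a smaller absolute log2 fold change. Its rise of 2.44 FPKM is small beside the level of its homolog.

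SWP73B (AT5G14170, chromosome 5, 4568509 to 4570947), listed in RefSeq as CHC1 and a regulator of leaf and flower development, stood at 34.3 FPKM in syd-5 and 34.1 FPKM in WT. Its log2 fold change was 0.01, the smallest absolute value of the 10 (q = 0.970 in the authors' deposited table). SWP73A made up 18.9% of the summed SWP73 transcripts in syd-5 and 14.1% in WT, and SWP73B exceeded it 4.28-fold in syd-5 and 6.11-fold in WT. The pair together came to 42.4 FPKM in syd-5 and 39.7 FPKM in WT. SWP73A was called and SWP73B was not, and the difference between their fold changes (0.51 on the log2 scale) was not tested.

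**Figure D2:**
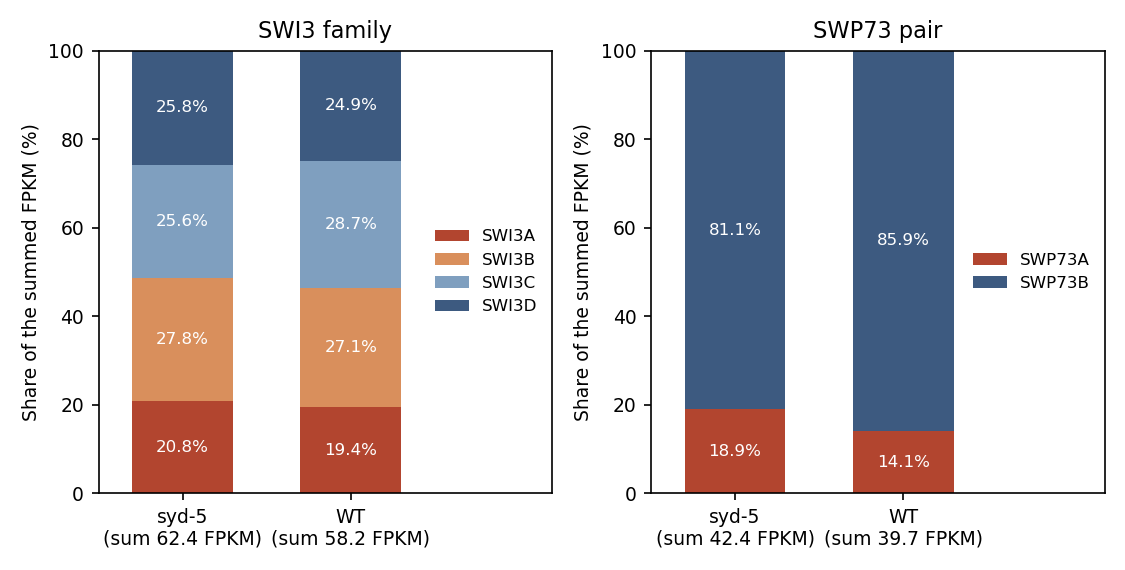
Share of the summed FPKM held by each gene of the SWI3 family (left panel) and of the SWP73 pair (right panel), in percent, with syd-5 as the left bar and WT as the right bar of each panel. The 4 SWI3 genes hold similar shares in both genotypes, while SWP73A holds 18.9% of its pair in syd-5 and 14.1% in WT.

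BSH (AT3G17590, chromosome 3, 6017212 to 6019666), the only SNF5-type gene of the group, stood at 14.2 FPKM in syd-5 and 14.0 FPKM in WT. Its log2 fold change was 0.02 (q = 0.940 in the authors' deposited table). ARP7 (AT3G60830, chromosome 3, 22474074 to 22476445), whose protein is nuclear and needed in the embryo, stood at 13.1 FPKM in syd-5 and 13.2 FPKM in WT. This is a log2 fold change of -0.01 (q = 0.964 in the authors' deposited table). BSH, ARP7 and SWP73B were the 3 members with the smallest differences between the genotypes, each under 2% of the WT level.

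ARP4 (AT1G18450, chromosome 1, 6348107 to 6351975), whose protein also belongs to the INO80, SWR1 and NuA4 complexes, stood at 32.8 FPKM in syd-5 and 27.7 FPKM in WT. The difference of 5.06 FPKM was the largest of the members on the linear scale, and the log2 fold change of 0.24 was the largest of those not called (p = 0.0908, q = 0.197 in the authors' deposited table). ARP4 and ARP7 had levels in a ratio of 2.50 in syd-5 and 2.10 in WT.

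BRD1 (AT1G20670, chromosome 1, 7164190 to 7168021), a bromodomain subunit of BRM complexes, stood at 19.1 FPKM in syd-5 and 14.7 FPKM in WT. The log2 fold change was 0.38 (p = 0.00675, q = 0.0246 in the authors' deposited table). Of all tested genes with a finite ratio, 58.4% had a smaller absolute log2 fold change. SWI3C and BRM, whose products work in the same complex, were not called and had log2 fold changes of -0.06 and -0.11. BRD1, SWI3C and BRM thus differed in size and sign of their fold changes, but the negative values were small and uncalled. These differences were not tested. AT1G76380 (BRD2), a relative of BRD1, stood at 11.7 FPKM in syd-5 and 9.30 FPKM in WT, a log2 fold change of 0.33. It was not called (q = 0.0823 in the authors' deposited table).

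Read against the table as a whole, the fold changes of the 10 members were small. Their median log2 fold change was 0.15 and their mean 0.16, against a median of -0.02 over all tested genes. By sign alone 8 members were above WT and 2 below. This split depends on the scaling, since setting the FPKM sums of the genotypes equal lowers every log2 fold change by 0.13 (a shift of -0.13) and leaves 6 above and 4 below. The median absolute log2 fold change was 0.15 for the members and 0.30 for all tested genes with a finite ratio. For tested genes with a mean FPKM within the members' range it was 0.23, closer to that of the members.

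**Figure D3:**
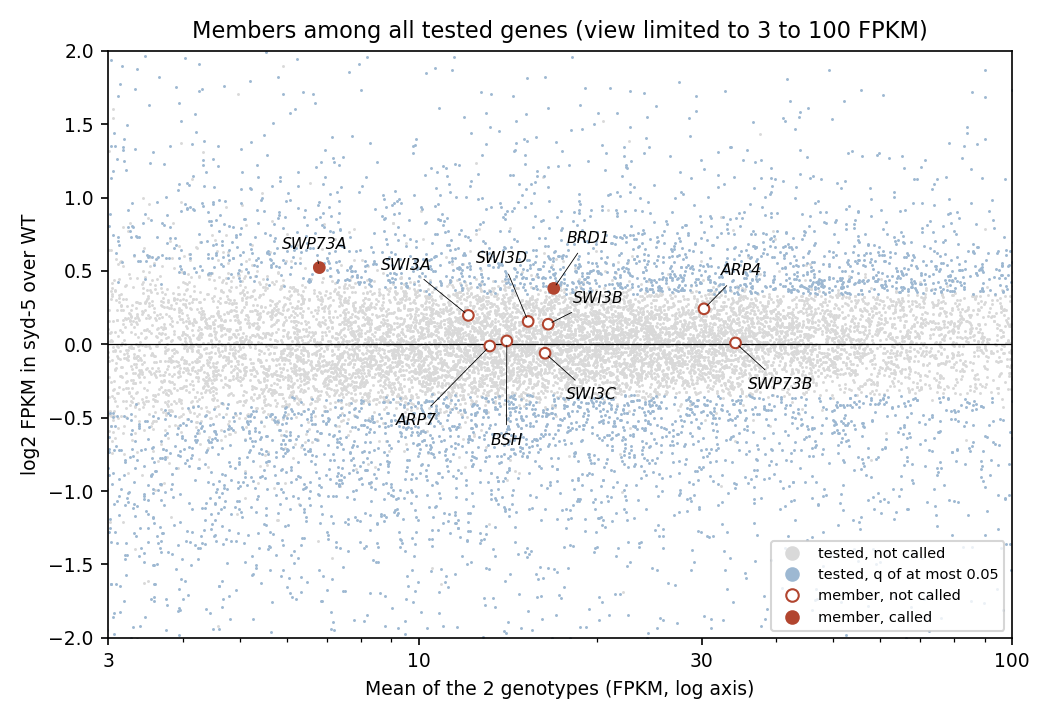
Log2 fold change of syd-5 over WT (vertical axis) against the mean FPKM of the genotypes (horizontal log axis) for tested genes, 1 point per gene, with called genes in blue, others in grey and the 10 members in red (filled where called). The members lie between log2 -0.06 and 0.52, and only SWP73A and BRD1 lie within the blue bands of called genes.

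The size of observed difference that was called at these levels can be read from the tested genes of similar level. Of 8276 tested genes with a mean within the range the members span (6.80 to 34.2 FPKM), 28.6% were called, 11.4% as higher and 17.2% as lower in syd-5. The smallest called difference among them was 0.34 on the absolute log2 scale, or 1.27-fold. Of 4995 genes in that range that differed by less than 0.3, 0 were called by the q-values of the authors' deposited table. Between 0.3 and 0.4, where BRD1 lies, 23.9% of 878 genes were called, and between 0.5 and 0.6, where SWP73A lies, 88.9% of 396. All 8 members that were not called differed by at most 0.24, a size at which no gene in the range was called. These shares are sorted by the observed difference, which itself enters the call. They therefore do not show how large a true difference could have been missed. The lack of a call for the 8 members does not show equal expression.

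**Figure D4:**
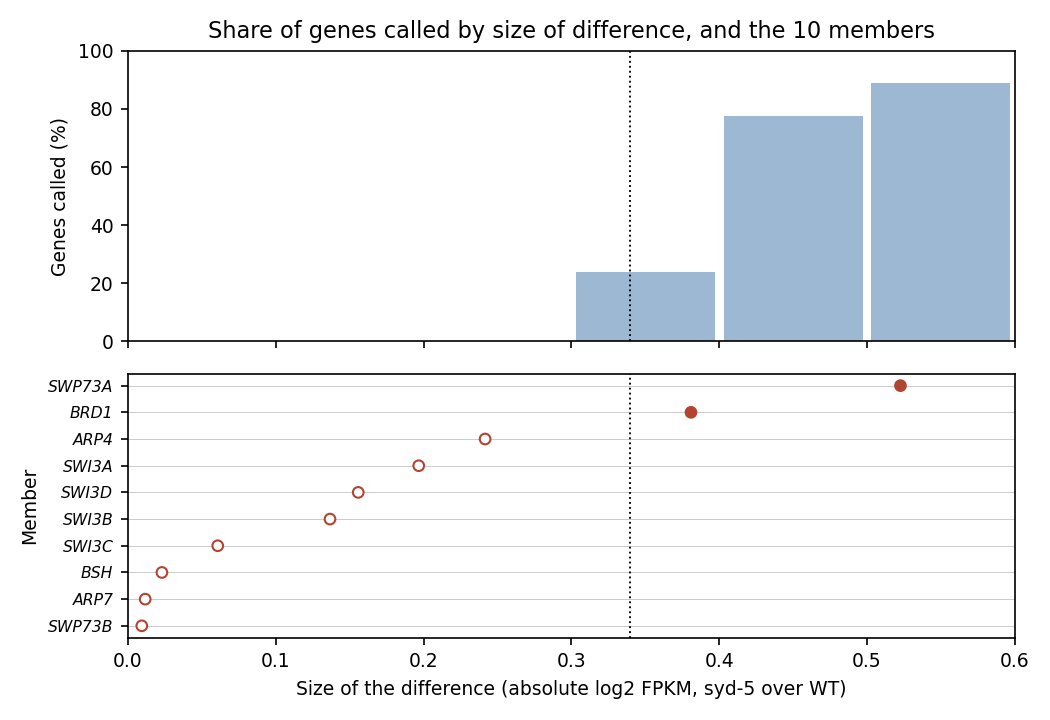
Upper panel: percent of tested genes called, by absolute log2 fold change in bins of 0.1, for genes with a mean FPKM within the members' range. Lower panel: absolute log2 fold change of each member (filled where called). The dotted line marks the smallest called difference, 0.34, and only BRD1 and SWP73A lie to its right.

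The ATPase genes show what the subunits stood beside. SYD (AT2G28290) fell to 2.53 FPKM in syd-5, against 13.1 FPKM in WT, with q = 0.000351 in the authors' deposited table (log2 -2.37). Its span overlaps another listed gene. BRM stood at 19.6 FPKM in syd-5 and 21.2 FPKM in WT, CHR12 at 11.6 FPKM and 11.1 FPKM, and CHR23 at 6.48 FPKM and 5.51 FPKM, and none of these was called. SYD and BRM together came to 22.2 FPKM in syd-5 and 34.3 FPKM in WT, and all 4 ATPase genes to 40.2 FPKM in syd-5 and 50.8 FPKM in WT. Protein was not measured.

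In WT 2 members, SWI3A and SWP73A, had lower levels than SYD. In syd-5 none did, as SYD itself had fallen to 2.53 FPKM, below the lowest member at 8.02 FPKM. Grouped by the ATPase they are known to work with, the member found with SYD, SWI3D, had a log2 fold change of 0.16. Those found with BRM, SWI3C and BRD1, had -0.06 and 0.38. Those found with the MINU-type ATPases, SWI3A, SWI3B and BSH, had 0.20, 0.14 and 0.02. The shared subunits SWP73A, SWP73B, ARP4 and ARP7 had 0.52, 0.01, 0.24 and -0.01.

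Other remodelling genes were described from 5 lists of 36 loci, of which 35 were tested as entries of their own. Of these 2 rose, 3 fell and 30 were not called (14.3% called, against 32.1% of all tested genes). Their median log2 fold change was -0.06. The ATPase list contributed SYD as its 1 fall among 4 genes. A list of 10 further loci assigned to SWI/SNF complexes had 9 tested, of which 1 fell, none rose and 8 were not called. Their median log2 fold change was 0.04 and their mean -0.04, so the signs of these differ. The locus that fell, AT1G58025, stood at 11.4 FPKM in syd-5 and 15.9 FPKM in WT, with q = 0.00861 in the authors' deposited table (log2 -0.48). By their mean over the genotypes, the most abundant of those not called were AT5G55210, at 71.1 FPKM in syd-5 and 58.0 FPKM in WT and with a span shared with another gene, AT5G55040, at 20.8 FPKM and 22.8 FPKM, and AT5G17510, at 18.4 FPKM and 17.8 FPKM. RefSeq gives no name for these 4 loci.

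Of 12 genes of the INO80, SWR1 and NuA4 complexes, which share ARP4 with SWI/SNF, 1 rose, 1 fell and 10 were not called (median log2 -0.12). AT5G67630 rose to 25.4 FPKM in syd-5, against 18.3 FPKM in WT, with q = 0.00641 in the authors' deposited table (log2 0.47). AT3G24880 fell to 2.67 FPKM in syd-5, against 3.79 FPKM in WT, with q = 0.00579 in the authors' deposited table (log2 -0.51). By their mean over the genotypes, the most abundant genes not called were AT2G47210, at 27.1 FPKM in syd-5 and 30.5 FPKM in WT, ARP6, an actin-related subunit of SWR1, at 26.5 FPKM and 24.0 FPKM with a shared span, and RIN1, an AAA-type ATPase gene, at 23.4 FPKM and 20.5 FPKM.

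In the list of ISWI-type and CHD3-type remodelling genes 1 of 6 rose and none fell (median log2 -0.09). CHR17, an ISWI ATPase gene, rose to 15.4 FPKM in syd-5, against 11.4 FPKM in WT, with q = 0.0103 in the authors' deposited table (log2 0.43). Its homolog CHR11 was not called, at 41.5 FPKM in syd-5 and 43.2 FPKM in WT. PKL, which encodes a CHD3 remodeller, stood at 23.1 FPKM in syd-5 and 25.6 FPKM in WT with a shared span, and RLT2, a partner of the ISWI proteins, at 13.6 FPKM and 14.2 FPKM.

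Of the 6 other actin-related protein genes listed none was called. ARP5 and ARP6 among them are also in the list of INO80, SWR1 and NuA4 genes. Each counts once among the 36 loci. ARP2 and ARP3, which act on cytoplasmic actin, stood at 5.09 FPKM and 7.32 FPKM in syd-5 and at 6.35 FPKM and 8.17 FPKM in WT. ARP5, a subunit of INO80, had the same 9.97 FPKM in syd-5 as the 9.96 FPKM in WT, to within 0.01 FPKM. ARP8 stood at 18.3 FPKM in syd-5 and 17.5 FPKM in WT, and ARP9 at 8.31 FPKM and 6.79 FPKM. Of the actin-related protein genes given here ARP4 was the most abundant in both genotypes.

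**Figure D5:**
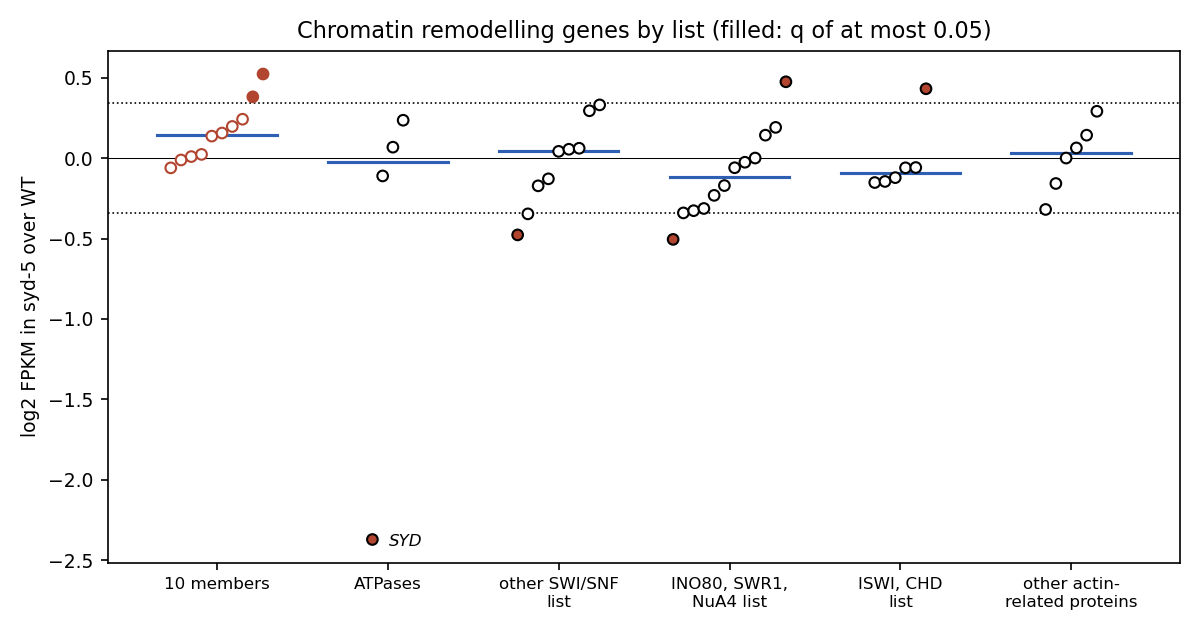
Log2 fold change of syd-5 over WT for each tested gene of 6 lists, 1 point per gene in each list, filled where called. ARP5 and ARP6 appear both in the INO80, SWR1 and NuA4 list and among the other actin-related proteins. Blue lines are list medians. Dotted lines mark 0.34 above and below 0, the smallest called difference at the members' level. SYD lies far below the rest at log2 -2.37, and the members other than SWP73A and BRD1 lie between the dotted lines.

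The tissue label was checked against marker genes. Of the leaf genes, RBCS1A stood at 9983 FPKM in syd-5 and 8061 FPKM in WT and RCA at 2109 FPKM in syd-5 and 1928 FPKM in WT, and neither was called. LHCB1.1, a light-harvesting gene with near-identical copies, rose 3.98-fold to 182 FPKM in syd-5, against 45.7 FPKM in WT, with q = 0.000351 in the authors' deposited table. The seed genes LEC1, FUS3 and AT2S3 were at or near 0, at most 0.0339 FPKM in syd-5 and 0.103 FPKM in WT. Of the shoot meristem genes, STM fell to 3.31 FPKM in syd-5, against 6.13 FPKM in WT, while CLV3 was listed at 0 in both genotypes and WUS at 0 in syd-5 and 0.0160 FPKM in WT. Of the root genes, SHR was called higher in syd-5 and SCR was not called. COBL9 and PLT1 were low, at 0.502 FPKM and 0.262 FPKM in syd-5, against 0.353 FPKM and 0.130 FPKM in WT. Like CLV3, WUS and the seed genes, COBL9 and PLT1 were not tested by the authors. Of 6 genes of dividing cells none was called, and by sign alone 4 were above WT and 2 below. Their levels ran from 1.78 to 99.3 FPKM in syd-5 (sum 139 FPKM) and from 1.97 to 81.3 FPKM in WT (sum 117 FPKM). Most of each sum came from HIS4, the highest of them in both genotypes. The part of these marker genes, LHCB1.1 and STM included, in the values of SWP73A and BRD1 was not tested. In whole seedlings fewer cells of a type and less RNA per cell cannot be told apart.

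The members lie on all 5 chromosomes. SWI3B and SWI3A share chromosome 2 with SYD, at distances of 2.16 Mb and 7.46 Mb, and neither was called. SWP73A and BRD1, which were called, lie on chromosomes 3 and 1. Of the 20 genes that flank the members on either side in RefSeq order 13 were tested, and 3 were called higher and 2 lower in syd-5 (38.5%, against 32.1% of all tested genes).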

How the data were processed

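The authors deposited a comparison of syd-5 with WT RNA with 1 expression value per gene and genotype, read here as FPKM from the values and the column layout. Each p-value and q-value was taken as the authors deposited it, and recomputing q from p by Benjamini-Hochberg over 19868 tested genes gave the same figures to within 5.22e-07. The deposited test statistic, a score, was used only to check the direction of the ratio, and the deposited log2 column was not used. Bowtie2, TopHat2 (version 2.0.4), bedtools and the build TAIR10 are named, with no role, in the submitters' processing notes. The sources used here do not name the program that made the comparison. No depth or spread per library is known.

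Fold changes were computed from the FPKM with pandas 2.3.3, with no pseudocount. Planned tests on values per library could not be run, so q of at most 0.05 was taken as given. Names came from RefSeq (TAIR10.1), where 32208 IDs matched. SWP73A and BRD1 have no RefSeq symbol and are named as in the list of loci by which the members were chosen. Listed starts count from 0 and were raised by 1. Members and lists were chosen with earlier results of these data known. All 10 members and the 4 ATPase genes are named, all tested genes of the list of other actin-related proteins, and of the other 3 lists each called gene and the 3 not called with the highest mean over the genotypes. AT1G76380 (BRD2) is also named, as a relative of BRD1. Alternatives covered thresholds, scaling and pseudocounts. The code for fold changes, scaling and the Benjamini-Hochberg adjustment was tested on simulated data. That test does not bear on the authors' calls. One gene was dropped from the lists and their counts and is not reported here.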

Additional observations from a re-analysis of the deposited data

How the results depend on the processing

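The count of 2 called members was 1 at a q threshold of 0.01 (SWP73A) and 0 when at least a 1.5-fold difference was also asked for, while 2 members had an unadjusted p under 0.05. It remained 2 at q of at most 0.10 and with the adjustment over all listed genes. Leaving out members with a mean under 1 FPKM or with a shared span could not change it. The lowest member mean was 6.80 FPKM, and no member has a shared span. With equal FPKM sums the members' median log2 fold change was 0.015, that of SWP73A 0.39 and that of BRD1 0.25, and the signs of BSH (-0.11) and SWP73B (-0.12) changed. With the median of all tested genes at 0 the sign of ARP7 changed (0.01). Upper quartile scaling and pseudocounts of 1 and 0.1 changed no sign and moved no member by more than 0.1. No paired analysis was possible because the table has 1 value per genotype. For the same reason leaving out libraries, edgeR and DESeq2 were not run. Unknown depth limits every value.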

Other observations

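One locus of the SWI/SNF lists, AT3G03460, occurs only in an entry joined with its neighbour AT3G03470 (TAIR10 chromosome 3, 822937 to 826437). The joined entry stood at 12.6 FPKM in syd-5 and 54.0 FPKM in WT, with q = 0.000351 in the authors' deposited table (log2 -2.10). The value covers 2 gene IDs, and its parts cannot be told apart, so it was left out of the counts.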
